A study of Homo sapiens with 12 samples.

Results

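Clade B serpins were followed through HCT116 and isogenic lines made from it. The genes examined were SERPINB1, SERPINB2, SERPINB5, SERPINB6, SERPINB7, SERPINB8 and SERPINB9, and their members on the array were all probe sets that the platform annotation gives the symbol of one of these 7 genes and no other. By that rule, 12 of 54675 probe sets and 5 of the 7 genes were found. SERPINB2 and SERPINB6 are named by no single-symbol probe set and were not analysed here. In 9 of the 12 probe sets the mean of some group reached 6 on the log2 scale, the level below which a signal was taken as near background. These 9 belong to SERPINB1, SERPINB5, SERPINB8 and SERPINB9, so 4 genes were tested.

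HCT116 is a line of human colorectal cancer cells that carries an oncogenic RAS allele. Hke3 and Hkh-2 are each a single clone of it in which that allele was targeted by homologous recombination. The 12 arrays form 4 groups of 3. The groups are HCT116 control cells on day 3 with 25 ng/ml doxycycline, HCT116 control cells on day 3 with vehicle, Hke3 and Hkh-2, all grown in DMEM with serum. The study describes the mutant allele as deleted in one place and as replaced by the wild-type allele in another. The labels do not settle whether the control cells are the parental line, so differences from HCT116 are differences from the vehicle arrays, and treatment and day cannot be told apart from the line. Whether replicate arrays represent separate cultures is not stated, and the p-values cover only how far the arrays scatter, which may be a technical matter.

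Serpins are protease inhibitors that present a flexible reactive loop as bait. The target protease cuts the loop, the serpin folds around it, and the enzyme stays trapped in a covalent complex. Clade B, the ov-serpins, lacks a classical secretion signal and acts largely inside the cell, where its members guard against proteases that leak from granules or lysosomes. SERPINB1 inhibits neutrophil elastase, proteinase 3 and cathepsin G and restrains inflammatory caspases. SERPINB9 inhibits granzyme B, the killing protease of cytotoxic lymphocytes. SERPINB8 inhibits furin, and SERPINB7 (megsin) is known from skin. SERPINB5 (maspin) does not inhibit proteases in the usual way and was described as a tumour suppressor of breast epithelium. The human genes lie in 2 clusters, with SERPINB1, SERPINB6 and SERPINB9 on chromosome 6 and the others on chromosome 18.

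The promoters of the 3 members that differed between the lines are shown because ETS and AP-1 factors are the classical transcriptional outputs of RAS signalling. Each sequence holds the 250 bases before the RefSeq start of the gene in GRCh38.p14, on the strand of the gene. Capitals mark a match on either strand to the ETS motif CCGGAAG or the AP-1 motif TGANTCA (no matches overlap in the windows shown). Of 35116 RefSeq promoter windows of this length, 8.52% hold the ETS motif and 6.57% the AP-1 motif. The SERPINB1 window, chr6:2841864-2842113 on the minus strand, holds 1 ETS match 153 bases before the start. The SERPINB5 window, chr18:63476708-63476957 on the plus strand, holds 1 AP-1 match 146 bases before the start. The SERPINB9 window, chr6:2903310-2903559 on the minus strand, holds neither set of letters and is the richest of the 3 in G and C, at 74.4% against 63.6% for SERPINB1 and 60% for SERPINB5. Matches were not particular to these 3 genes. The window of SERPINB8, which passed no test as a gene, holds 2 AP-1 matches and 1 ETS match, more than any of the windows printed. Of the 3 SERPINB7 windows, 2 hold 2 AP-1 matches each, the SERPINB2 window holds 1 AP-1 match, and 1 of the 4 SERPINB6 windows holds an ETS match. A match is a description of letters and not a binding site.
SERPINB1: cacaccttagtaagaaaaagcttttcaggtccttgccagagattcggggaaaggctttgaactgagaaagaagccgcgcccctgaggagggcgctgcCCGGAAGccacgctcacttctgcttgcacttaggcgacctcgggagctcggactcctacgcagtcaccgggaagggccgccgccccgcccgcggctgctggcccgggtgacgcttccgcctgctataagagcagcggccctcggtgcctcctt
SERPINB5: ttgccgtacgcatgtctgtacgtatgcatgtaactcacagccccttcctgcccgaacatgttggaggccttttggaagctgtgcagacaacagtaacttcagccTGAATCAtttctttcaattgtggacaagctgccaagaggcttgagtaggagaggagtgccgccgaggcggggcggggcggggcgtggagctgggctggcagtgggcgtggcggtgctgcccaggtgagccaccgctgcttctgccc
SERPINB9: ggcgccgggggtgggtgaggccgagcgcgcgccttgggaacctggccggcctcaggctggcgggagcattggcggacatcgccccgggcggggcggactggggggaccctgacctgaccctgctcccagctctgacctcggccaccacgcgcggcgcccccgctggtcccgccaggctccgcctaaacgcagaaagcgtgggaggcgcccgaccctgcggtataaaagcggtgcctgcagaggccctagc

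The array medians lay between 5.80 and 5.86 on the log2 scale, and Pearson's r between arrays of 1 group ran from 0.993 to 0.998. HCT116 vehicle replicate 2 and Hke3 replicate 3 stood apart within their groups, with deviations that correlated with each other across genes (r = 0.683). The 5′ signal of the BioC spike-in control was 8.37 in HCT116 vehicle replicate 2 and between 9.44 and 10.16 in the other arrays. Of 10 markers of colon epithelium, 8 passed the floor, and CDH17 and LGALS4 were near background. EPCAM was at 13.09 in doxycycline arrays, 13.09 in vehicle arrays, 13.24 in Hke3 and 13.16 in Hkh-2 and passed no test, but others did. Against Hke3, 2 of the 8 were higher and 2 lower in HCT116 vehicle, and against Hkh-2 none was higher and 4 were lower. CDH1 differed by -0.83 and -1.17 (limma adjusted p = 2.67e-05 and 1.41e-06) and KRT19 by -0.53 and -0.64 (adjusted p = 0.001 and 0.000307), and KRT8 by -0.59 from Hkh-2 (adjusted p = 0.00106). The 2 that went the other way against Hke3 were CDX2, by 0.44, and KRT18, by 0.20 (adjusted p = 0.0109 and 0.049). KRT18 differed by -0.33 from Hkh-2 (adjusted p = 0.00481). Leukocytes also use SERPINB1 and SERPINB9. The leukocyte marker PTPRC reached at most 3.94 in any group mean, and LYZ, MPO and ELANE were near background. Of the 8 leukocyte markers listed, 6 had a probe set and 2 passed the floor, CD3E and ITGAM, with highest group means of 6.18 and 6.11. The mean over the 6 ran from 4.85 to 5.05 in doxycycline arrays, from 4.90 to 4.99 in vehicle arrays, from 4.78 to 4.94 in Hke3 and from 4.89 to 4.97 in Hkh-2. Markers of fibroblasts and endothelium passed the floor in 5 of 6. In HCT116 vehicle 2 were up and none down relative to Hke3, and 2 up and 1 down relative to Hkh-2. The shares of all genes called are given below. The mean of the fibroblast and endothelium markers ran from 6.14 to 6.32 in doxycycline arrays, from 6.20 to 6.26 in vehicle arrays, from 5.91 to 6.08 in Hke3 and from 6.33 to 6.45 in Hkh-2. COL3A1 was at least 0.73 lower in HCT116 vehicle, near background, than in Hkh-2 (adjusted p = 2.34e-08), and VWF was at least 0.35 higher than in Hke3 and in Hkh-2 (adjusted p = 0.000475 and 0.000523). Of 4 keratinocyte markers with a probe set, 2 passed the floor, KRT5 and KRT10. In HCT116 vehicle none was called higher and 1 lower relative to each line, but not the same 1. KRT5 differed by -0.42 from Hke3 (adjusted p = 0.00863) and was at least 0.50 higher in Hke3 than in Hkh-2 (adjusted p = 0.000321). KRT10 differed by -0.24 from Hkh-2 (adjusted p = 0.0167). It did not pass against Hke3 (-0.17, adjusted p = 0.0686) or between the clones (-0.08, adjusted p = 0.423). The part of these markers in the differences of the serpins was not tested. The 5′ minus 3′ log2 signal of the actin control, a measure of RNA and labelling quality, did move with the groups. It ran from -0.94 to -0.71 in doxycycline arrays, from -0.85 to -0.48 in vehicle arrays, from -0.58 to -0.23 in Hke3 and from -0.32 to -0.23 in Hkh-2. The same measure of the GAPDH control did not move with the groups. It ran from 0.01 to 0.08 in doxycycline arrays, from -0.03 to 0.09 in vehicle arrays, from 0.0016 to 0.11 in Hke3 and from -0.03 to 0.02 in Hkh-2, with overlap in every pair of groups. The part of either control in the differences below was not tested.

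Against Hke3, 2 of the 4 members tested were lower in HCT116 vehicle cells (SERPINB1 and SERPINB9) and 1 was higher (SERPINB5). Against Hkh-2, 1 was lower (SERPINB1) and 2 were higher (SERPINB5 and SERPINB9). SERPINB8 passed the test in neither. These counts stand beside a broad background, since in the comparison with Hke3 24.6% of all 12852 genes tested were higher in HCT116 and 23.2% were lower, and in that with Hkh-2 the shares were 14.3% higher and 21.7% lower. The median log2 difference of the 4 members was -0.39 against Hke3 and 0.31 against Hkh-2, beside 0.04 and -0.02 over all genes. The values are of RNA from whole cultures, in which fewer cells that express a gene and less RNA per cell cannot be told apart.

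**Figure D1:**
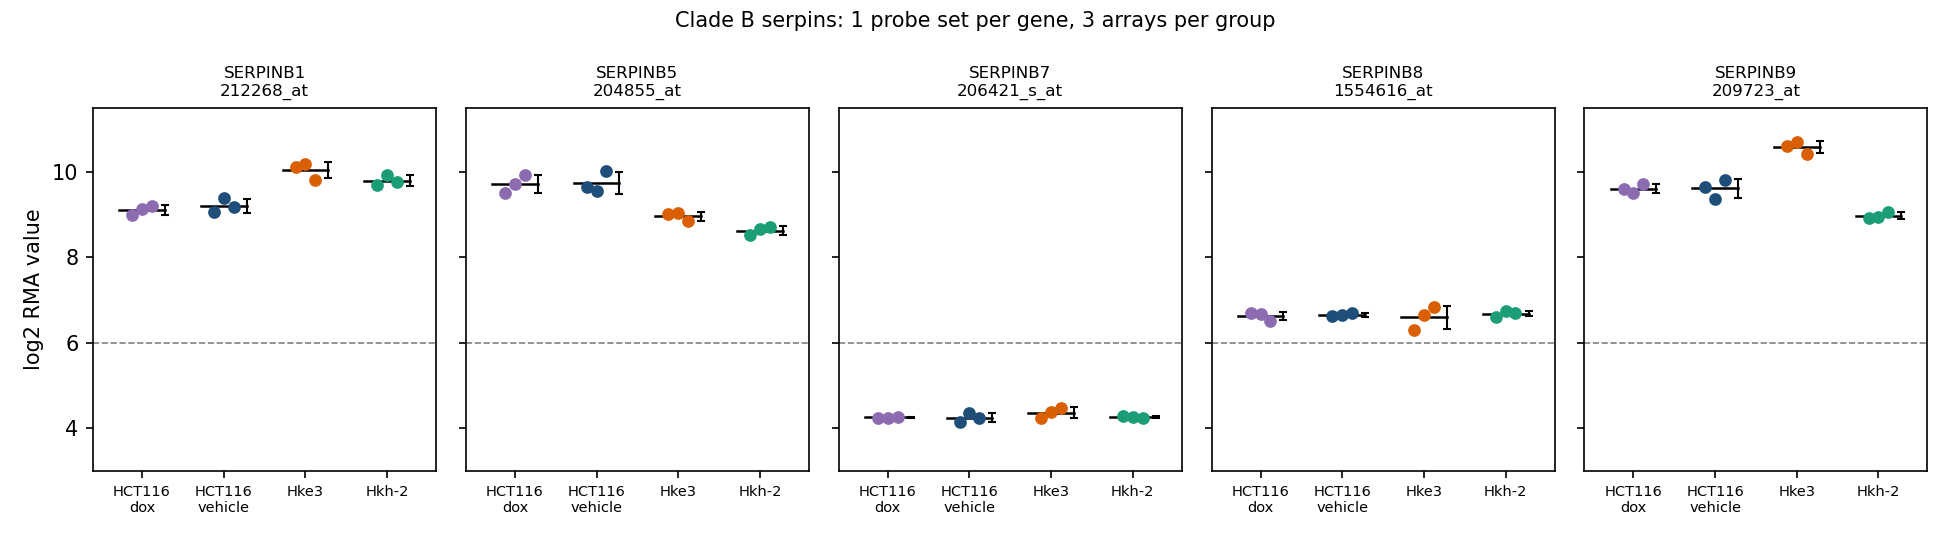
Log2 RMA value (y axis) of the probe set that represents each of the 5 genes in the 3 arrays of each group (points), with the group mean (line) and SD (bar); the dashed line is the background level of 6. SERPINB1 is higher in both lines than in HCT116, SERPINB5 lower in both, SERPINB9 highest in Hke3 and lowest in Hkh-2, and SERPINB7 lies under 6 on every array.

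SERPINB1, the inhibitor of neutrophil elastase, was lower in HCT116 than in either line. Its representative probe set, 212268_at, read 8.99, 9.13 and 9.21 in doxycycline arrays, 9.06, 9.38 and 9.17 in vehicle arrays, 10.12, 10.18 and 9.82 in Hke3 and 9.69, 9.93 and 9.76 in Hkh-2. All 6 HCT116 arrays lay below all 6 arrays of the lines, while the ranges of Hke3 and Hkh-2 overlapped. The difference of HCT116 vehicle from Hke3 was -0.84 ± 0.114 (SE, n = 3 each, limma adjusted p = 6.36e-05), and that from Hkh-2 was -0.59 ± 0.114 (adjusted p = 0.00131). A difference of 1 on this scale is a change by a factor of 2. Of all genes tested, 8.51% had a larger difference in size against Hke3 and 12.8% against Hkh-2. Hke3 stood above Hkh-2 by 0.25 (95% confidence interval 0.0018 to 0.50, adjusted p = 0.102), which did not pass the threshold. Without Hke3 replicate 3, the lowest of its group, the same difference was 0.36 and passed (adjusted p = 0.0145).

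This course was shared by 3 of the 4 SERPINB1 probe sets. Probe set 213572_s_at read 8.43, 8.40 and 8.62 in doxycycline arrays, 8.59, 8.26 and 8.67 in vehicle arrays, 9.81, 9.86 and 9.49 in Hke3 and 9.24, 9.23 and 9.31 in Hkh-2. Probe set 228726_at read 7.28, 7.29 and 7.38 in doxycycline arrays, 7.26, 7.17 and 7.57 in vehicle arrays, 8.85, 8.94 and 8.11 in Hke3 and 7.87, 7.74 and 7.90 in Hkh-2. In both, HCT116 was lowest, Hkh-2 intermediate and Hke3 highest, with no overlap between the 3 lines. In a second limma fit over the 27403 probe sets past the floor, HCT116 vehicle differed from Hke3 by -1.21 (adjusted p = 6.11e-06) for 213572_s_at and by -1.30 (adjusted p = 8.25e-05) for 228726_at. Against Hkh-2 the differences were -0.75 (adjusted p = 0.00036) and -0.50 (adjusted p = 0.0434). Here Hke3 also exceeded Hkh-2, by 0.45 (adjusted p = 0.0115) and 0.80 (adjusted p = 0.00383). Over the 12 arrays the 3 probe sets correlated with r between 0.888 and 0.950, points that share 4 groups and are no independent test.

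The fourth SERPINB1 probe set, 239213_at, did not follow. It read 6.55, 6.63 and 6.37 in doxycycline arrays, 6.45, 6.76 and 6.39 in vehicle arrays, 6.36, 6.49 and 6.55 in Hke3 and 6.47, 6.46 and 6.44 in Hkh-2, with all groups overlapping and close to the floor. Its difference of HCT116 vehicle from Hke3 was 0.07 (95% confidence interval -0.16 to 0.29, limma adjusted p = 0.623), an interval that does not reach the estimates of the other 3 probe sets. The annotation used here does not say which transcript of the gene each probe set reads.

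SERPINB5, maspin, ran the other way and was higher in HCT116 than in either line. Probe set 204855_at read 9.50, 9.71 and 9.92 in doxycycline arrays, 9.65, 9.55 and 10.02 in vehicle arrays, 9.01, 9.04 and 8.84 in Hke3 and 8.51, 8.66 and 8.71 in Hkh-2. No array of HCT116 overlapped with either line, and none of Hke3 with Hkh-2. HCT116 vehicle exceeded Hke3 by 0.78 ± 0.129 (SE, n = 3 each, limma adjusted p = 0.000315) and Hkh-2 by 1.11 ± 0.129 (adjusted p = 1.95e-05). Larger differences were seen in 10% of all genes against Hke3 and in 3.93% against Hkh-2. The step of 0.34 between Hke3 and Hkh-2 (95% confidence interval 0.06 to 0.62, adjusted p = 0.0539) fell just short of the threshold, and its adjusted p ran from 0.019 to 0.17 over the alternatives. It passed when doxycycline replicate 1 or 3, vehicle replicate 2 or 3 or Hke3 replicate 3 was left out (adjusted p = 0.0464, 0.0454, 0.038, 0.0248 and 0.0334). The other SERPINB5 probe set, 1555551_at, lay between 2.96 and 3.29 on every array and is not informative.

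SERPINB9, the granzyme B inhibitor, separated the lines from each other more than from HCT116. Probe set 209723_at read 9.59, 9.51 and 9.73 in doxycycline arrays, 9.65, 9.38 and 9.81 in vehicle arrays, 10.61, 10.70 and 10.42 in Hke3 and 8.91, 8.95 and 9.06 in Hkh-2. The order was Hke3, HCT116, Hkh-2, with no overlap between them. HCT116 vehicle was lower than Hke3 (-0.97 ± 0.111, SE, n = 3 each, limma adjusted p = 1.44e-05) and higher than Hkh-2 (0.64 ± 0.111, adjusted p = 0.000578). The difference between Hke3 and Hkh-2 was 1.60 ± 0.111 (95% confidence interval 1.36 to 1.84, adjusted p = 1.9e-07), and 1.55% of all genes differed more in size between these clones.

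A second SERPINB9 probe set, 209722_s_at, sat at the floor and gave the same contrast of the lines. It read 5.24, 5.40 and 5.58 in doxycycline arrays, 5.47, 5.29 and 5.68 in vehicle arrays, 6.43, 6.23 and 6.39 in Hke3 and 5.39, 5.05 and 5.28 in Hkh-2. Hke3 was the single group above 6, so this probe set passed the floor only through the group where it is high. Its tests are therefore no separate support for 209723_at. HCT116 vehicle, near background, was at least 0.35 lower than Hke3 (limma adjusted p = 0.000105), and Hke3 was at least 0.35 higher than Hkh-2 (adjusted p = 2.19e-05). HCT116 and Hkh-2 were both near background for this probe set, so no size is given for their difference. It correlated with 209723_at over the 12 arrays with r = 0.925. The third, 242814_at, lay between 3.53 and 4.09 on every array.

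**Figure D2:**
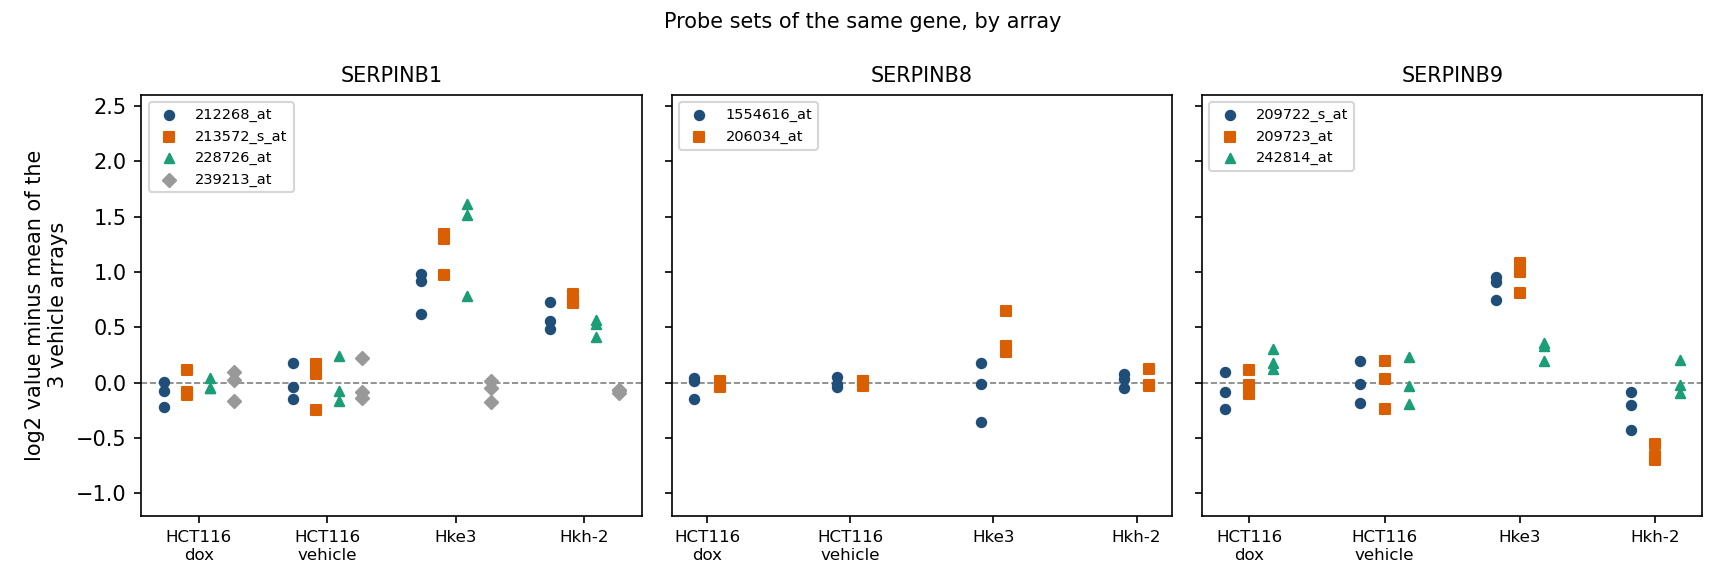
Log2 value of each probe set minus its own mean over the 3 vehicle arrays (y axis), by group (x axis), for SERPINB1, SERPINB8 and SERPINB9; each point is 1 array and each symbol 1 probe set. In SERPINB1, 3 probe sets lie above 0 in both lines while 239213_at stays near 0, and in SERPINB9 both 209723_at and 209722_s_at are highest in Hke3.

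SERPINB8, the furin inhibitor, showed no difference that its probe sets shared. Probe set 1554616_at read 6.70, 6.67 and 6.51 in doxycycline arrays, 6.61, 6.64 and 6.70 in vehicle arrays, 6.30, 6.64 and 6.83 in Hke3 and 6.61, 6.73 and 6.69 in Hkh-2. The ranges overlapped in every pair of groups. HCT116 vehicle differed from Hke3 by 0.06 (95% confidence interval -0.18 to 0.31, limma adjusted p = 0.676) and from Hkh-2 by -0.03 (-0.27 to 0.22, adjusted p = 0.887). Probe set 206034_at read 5.72, 5.69 and 5.67 in doxycycline arrays, 5.68, 5.72 and 5.73 in vehicle arrays, 6.36, 5.99 and 6.04 in Hke3 and 5.68, 5.84 and 5.69 in Hkh-2. It was highest in Hke3 without overlap, and HCT116 vehicle, near background, was at least 0.13 lower (adjusted p = 0.00317), as Hke3 was at least 0.13 higher than Hkh-2 (adjusted p = 0.00602). Probe set 206034_at passed the floor only through Hke3, so these tests are no separate support for a difference of SERPINB8. The mean of the 2 probe sets gave -0.18 for HCT116 vehicle against Hke3 (adjusted p = 0.036), opposite in sign to the representative probe set.

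SERPINB7 was near background throughout, at 4.24, 4.23 and 4.26 in doxycycline arrays, 4.14, 4.36 and 4.23 in vehicle arrays, 4.23, 4.37 and 4.47 in Hke3 and 4.27, 4.24 and 4.23 in Hkh-2. It was not tested. The 6 other clade B serpins of the genome (SERPINB3, SERPINB4, SERPINB10, SERPINB11, SERPINB12 and SERPINB13) each had a probe set, and none passed the floor. Their highest group means lay between 3.11 for SERPINB4 and 5.34 for SERPINB12. SERPINB3 and SERPINB4 are near-identical copies that probe sets may not tell apart.

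These differences held without the 2 arrays that stood apart, HCT116 vehicle replicate 2 and Hke3 replicate 3. SERPINB1 then differed by -1.04 from Hke3 and by -0.68 from Hkh-2 (limma adjusted p = 4.89e-06 and 6.99e-05). SERPINB5 differed by 0.81 and 1.21 (adjusted p = 0.000489 and 1.46e-05). SERPINB9 differed by -0.93 and 0.76 (adjusted p = 7.52e-06 and 1.96e-05), and between Hke3 and Hkh-2 by 1.68 (adjusted p = 3.83e-08).

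Counted by probe set, 7 of the 9 member probe sets past the floor differed between HCT116 vehicle and Hke3, 5 between HCT116 vehicle and Hkh-2 and 5 between Hke3 and Hkh-2. Over all probe sets tested, in either direction, the shares were 44.7%, 35.5% and 35.9%. The count of 5 against Hkh-2 fell to 4 with cyclic loess, with no filter, with the replicate block and when any doxycycline array, vehicle replicate 1 or 2 or any Hkh-2 array was left out, which is 8 of the 12 arrays. Probe sets of 1 gene share their source and are not replicates. By gene, 1 member was higher and none lower in Hke3 than in Hkh-2, where 16.3% of all genes were higher and 23.5% lower.

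Between doxycycline and vehicle no member passed the test. This held for the 4 genes and the 9 probe sets, and of all genes and probe sets 0% did in either direction (limma, 127 of 12852 genes at an unadjusted p under 0.05). The differences of doxycycline from vehicle were -0.09 for SERPINB1 (95% confidence interval -0.34 to 0.15), -0.03 for SERPINB5 (-0.31 to 0.25), -0.03 for SERPINB8 (-0.27 to 0.22) and -0.0033 for SERPINB9 (-0.24 to 0.24). These intervals come from a fit that did not pair arrays by replicate number. The 127 genes are fewer than a threshold of 0.05 would give with no effect, so its p-values may be too large in this comparison. The 0% therefore does not show that doxycycline had no effect. Differences inside these intervals cannot be told apart from none with 3 arrays a group.

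**Figure D3:**
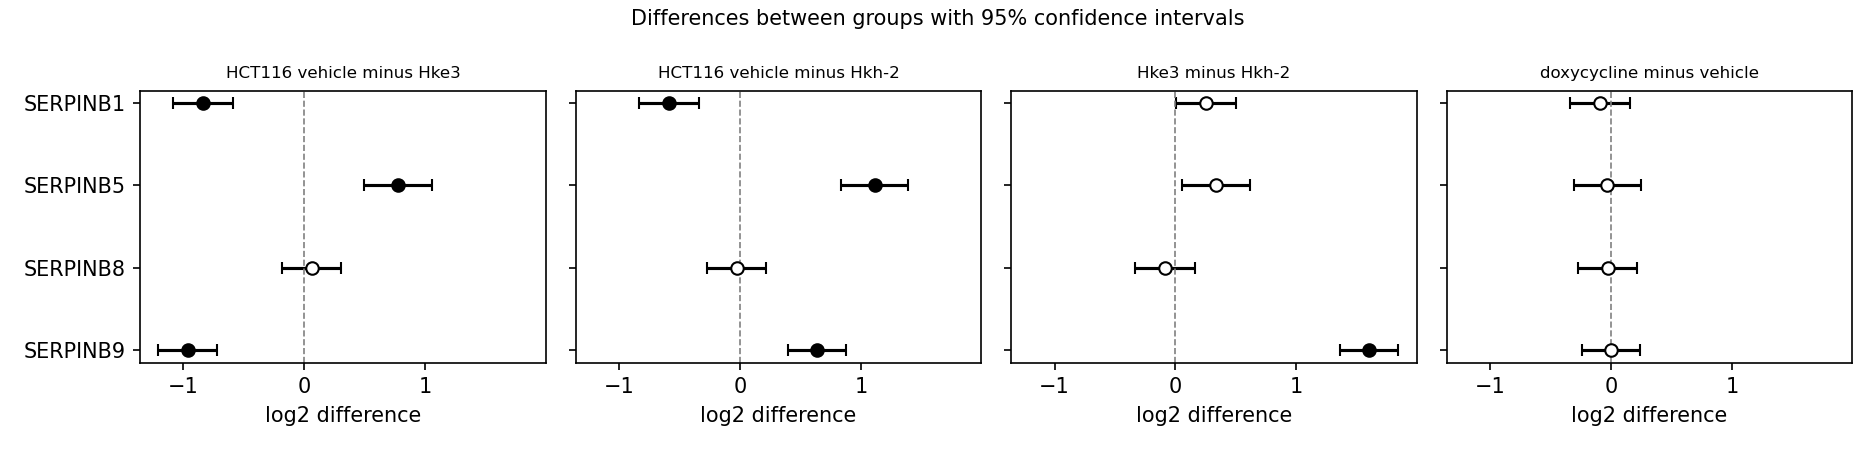
Log2 difference (x axis) of the 4 tested members in the 4 comparisons, with 95% confidence intervals from limma; filled points have an adjusted p under 0.05. SERPINB1 and SERPINB5 have opposite signs against both lines, SERPINB9 changes sign between the lines, and every interval of doxycycline minus vehicle spans 0.

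A list of 20 genes holds proteases that clade B serpins inhibit or that share their pathways, together with the urokinase receptor. Of these, 12 passed the floor. Against Hke3, 1 was higher and 7 were lower in HCT116 vehicle, with a median difference of -0.36 beside 0.04 over all genes, of which 24.6% were higher and 23.2% lower. Against Hkh-2, 2 were higher and 2 lower, with a median of -0.06 beside -0.02, and 14.3% of all genes higher and 21.7% lower. Between the clones, 5 were higher and none lower in Hke3, with a median of 0.28 beside -0.06, and 16.3% of all genes higher and 23.5% lower. The 4 of 12 called against Hkh-2 and the 5 of 12 called between the clones are near the shares of all genes called in either direction. As totals, these 2 counts are no result about the proteases. All 5 called between the clones were higher in Hke3. The split by direction of this list was not tested, there or against Hke3. With doxycycline none passed.

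The immune proteases that SERPINB1 and SERPINB9 are best known to inhibit were near background in these epithelial cells. ELANE (neutrophil elastase) reached at most 4.92 in any group mean, PRTN3 (proteinase 3) 4.77 and GZMB (granzyme B) 4.29. CTSG (cathepsin G), also a neutrophil protease, lay near the floor at 6.62 in doxycycline arrays, 6.44 in vehicle arrays, 6.31 in Hke3 and 6.45 in Hkh-2. CASP4, the caspase that senses bacterial lipopolysaccharide inside the cell, was lowest in HCT116, as SERPINB1 was. It averaged 4.87 in doxycycline arrays and 4.92 in vehicle arrays, both near background, 9.00 in Hke3 and 7.89 in Hkh-2. HCT116 vehicle was thus at least 3.00 lower than Hke3 (limma adjusted p = 3.55e-11) and at least 1.89 lower than Hkh-2 (adjusted p = 6.26e-10), and Hke3 exceeded Hkh-2 by 1.11 (adjusted p = 1.05e-05). The other inflammatory caspases listed did not share this course in both lines. CASP1 was at least 0.27 lower in HCT116 vehicle than in Hke3 (adjusted p = 0.00525). In HCT116 vehicle and Hkh-2 it was near background (5.82 and 5.99). CASP5 reached at most 4.13 in any group mean.

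KLK5, a kallikrein of the epidermis, was also lowest in HCT116, with 7.74 in doxycycline arrays, 7.80 in vehicle arrays, 11.03 in Hke3 and 9.67 in Hkh-2. Its difference was -3.23 against Hke3 (limma adjusted p = 3e-11) and -1.87 against Hkh-2 (adjusted p = 4.27e-09). KLK7, a partner of KLK5 in skin, differed by -0.57 from Hke3 (adjusted p = 0.000994) and by -0.29 from Hkh-2 (adjusted p = 0.0584), while KLK8 was 0.51 and 0.39 higher in HCT116 (adjusted p = 0.000201 and 0.00177). PLAU, the urokinase that SERPINB2 inhibits, stood high in Hke3 alone. It averaged 8.84 in doxycycline arrays, 8.85 in vehicle arrays, 10.87 in Hke3 and 9.07 in Hkh-2. Its difference of HCT116 vehicle from Hke3 was -2.02 (adjusted p = 4.32e-09), and that of -0.22 from Hkh-2 did not pass (adjusted p = 0.103). PLAT, tissue plasminogen activator, was lower in HCT116 than in Hke3 (-0.28, adjusted p = 0.0168) and higher than in Hkh-2 (0.47, adjusted p = 0.000887), the same pair of signs as SERPINB9.

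**Figure D4:**
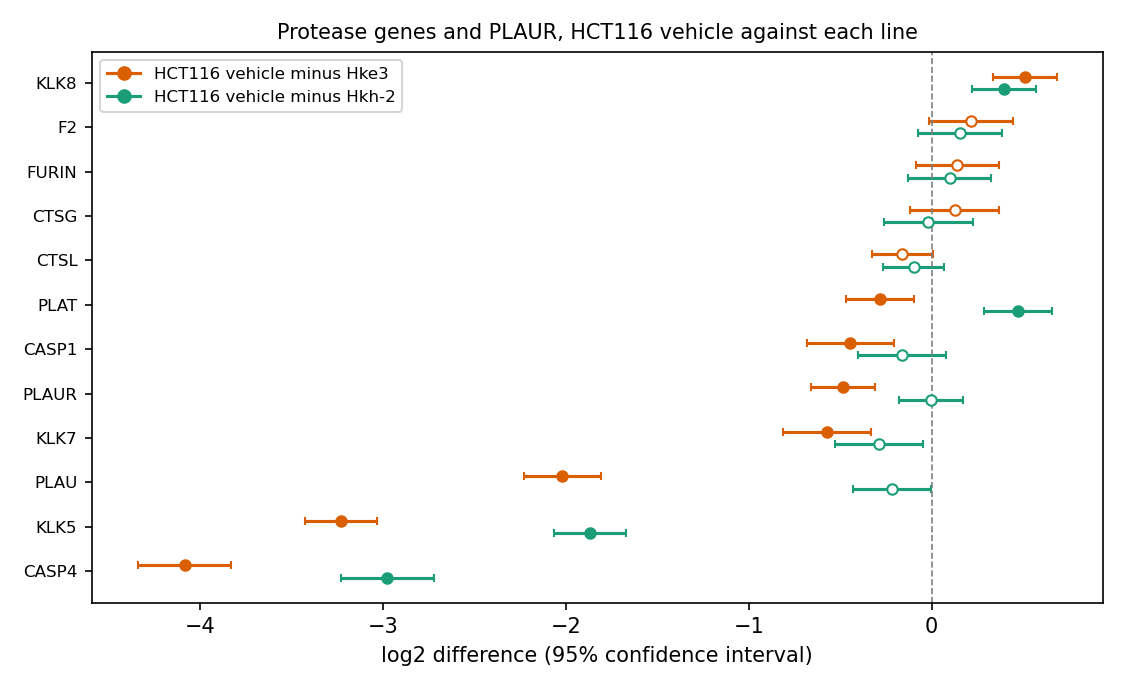
Log2 difference of HCT116 vehicle from Hke3 (orange) and from Hkh-2 (green) with 95% confidence intervals, for the 12 genes of the protease list that passed the floor; filled points have an adjusted p under 0.05. CASP4 and KLK5 lie farthest to the left in both, PLAU only against Hke3; the CASP4 points are fitted values, and since its vehicle mean is near background they are read as at least 3.00 and 1.89 lower.

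The tested genes next to the 2 clusters in gene order, taken with no limit on distance, were called in both directions. The shares of all genes called for comparison were 24.6% up and 23.2% down relative to Hke3, and 14.3% up and 21.7% down relative to Hkh-2. On chromosome 6, where SERPINB1 and SERPINB9 lie, the 5 nearest tested protein-coding genes on each side gave 5 genes up and 5 down in HCT116 relative to Hke3 (median -0.04), and 3 up and 3 down relative to Hkh-2 (median -0.07). The widest gap among them was that of FOXQ1, a forkhead factor, which was near background in HCT116 vehicle (5.87) and read 9.48 in Hke3 and 9.28 in Hkh-2, so that it was at least 3.48 and 3.28 lower (limma adjusted p = 2.98e-09 and 4.91e-09). On chromosome 18, where SERPINB5 and SERPINB8 lie, 2 of 10 were higher and 4 lower against Hke3 (median -0.28), and 2 were higher and 2 lower against Hkh-2 (median -0.08). There RTTN, a centriole gene, was higher by 0.84 against Hke3 and 0.88 against Hkh-2 (adjusted p = 1.68e-06 and 1.24e-06), and CYB5A, a cytochrome, differed by -0.27 and -0.99 (adjusted p = 0.0165 and 7.86e-07).

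The 3 members that changed each had other genes with the same course over the arrays. Among 1250 tested genes whose group means span at least 1, those most like SERPINB9 by Pearson's r over the 12 arrays were PDZD8 (r = 0.993), KATNAL1 (r = 0.992) and SGTB (r = 0.986). PDZD8 averaged 10.88 in doxycycline arrays, 10.81 in vehicle arrays, 11.90 in Hke3 and 10.08 in Hkh-2. SERPINB5 was matched most closely by LNCAROD (r = 0.976), AQP3 (r = 0.976) and CYP26A1 (r = 0.975). AQP3, a water and glycerol channel, averaged 10.43 in doxycycline arrays, 10.41 in vehicle arrays, 8.21 in Hke3 and 7.75 in Hkh-2. SERPINB1 was matched by CCN2 (r = 0.971), ALDH1A3 (r = 0.970) and YPEL5 (r = 0.967), of which CCN2, a matricellular protein gene, was near background in HCT116 vehicle (5.03) and read 8.26 in Hke3 and 7.07 in Hkh-2. The 12 points fall into 4 groups, so these values describe likeness of group means. Between the members themselves, r was -0.776 for SERPINB1 and SERPINB5, 0.344 for SERPINB1 and SERPINB9 and 0.147 for SERPINB5 and SERPINB9.

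SERPINB1 and SERPINB5 both belong to RAS84, the 84-gene RAS signature of the study. Of its 75 genes tested here, 15 were higher in HCT116 vehicle than in both lines, SERPINB5 among them, and 18 were lower than in both, SERPINB1 among them. Over all genes tested, 9.04% were higher than in both and 12.6% lower than in both. The signature was drawn in part from these cell lines and is not independent evidence of a direction.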

How the data were processed

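RNA of HCT116 control cells with doxycycline or vehicle, Hke3 and Hkh-2 was measured on 3 Affymetrix arrays per group. The values the authors deposited are on the log2 scale, with 1 value for each probe set of an array, made with RMA per the submitters' processing notes (version and chip definition not given in the sources used here). RMA normalizes between arrays, so a level is comparable between arrays of 1 probe set and not between probe sets. Depth does not apply to arrays, and their number limits the precision. With 3 arrays a side, 0.1 is the smallest two-sided p of an exact test.

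Names of probe sets came from the platform annotation. Of 41097 with a single symbol, 41043 found their gene ID in RefSeq, while 1801 with several symbols and 11777 unnamed ones were left out. The probe set with the highest mean stood for its gene, and the gene was kept where a group mean reached 6 (12852 of 19775 genes). Where a group mean lay under 6, differences from it are lower bounds measured from 6. All 12 arrays entered 1 limma fit (version 3.58.1, under R 4.3.3) with a mean for each of the 4 groups, with Benjamini-Hochberg adjustment over all genes kept and a threshold of 0.05, and again over all 27403 probe sets past the floor. The methods of the study name no test for these arrays. The fit was tested on simulated data.

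The members and lists were chosen with earlier results of these data known. Named genes were all members, up to 4 called genes per list and comparison by size, and the 3 genes most like each of 3 members. The RAS84 list was looked up after the members' values were seen. Replicate numbers were taken to pair only the doxycycline and vehicle arrays, since the deviations of their same-numbered arrays all correlated across genes (r = 0.228, 0.212 and 0.453). Those of doxycycline and Hkh-2 arrays did so more weakly (r = 0.0762, 0.134 and 0.104). The reported fit did not use this pairing. The replicate block spans all 4 groups, and a fit that pairs only doxycycline and vehicle was not run. Alternatives tried were other summaries of probe sets, filters, normalizations, fits and priors, the replicate block, pooled HCT116 arrays, a size threshold, and arrays left out. Promoter sequences came from RefSeq, build GRCh38.p14.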

Additional observations from a re-analysis of the deposited data

Results flagged for a closer look

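SERPINB9 differed from HCT116 vehicle in opposite directions in the 2 recombined lines, with a difference of -0.97 against Hke3 and of 0.64 against Hkh-2. All 3 Hke3 arrays lay above and all 3 Hkh-2 arrays below every HCT116 array. Both comparisons share the vehicle arrays, and the difference between them is that between the lines, 1.60 ± 0.111 for Hke3 minus Hkh-2 (SE, n = 3 each, limma adjusted p = 1.9e-07). Over the alternatives it ran from 0.99 to 1.68, the lowest with the mean of its probe sets, of which 1 lies near background throughout.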

How the results depend on the processing

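Over the alternatives, SERPINB1 against Hke3 (-1.04 to -0.77) and Hkh-2 (-0.68 to -0.44), SERPINB5 against Hke3 (0.44 to 0.87) and Hkh-2 (0.65 to 1.21) and SERPINB9 against Hke3 (-1.07 to -0.71) and Hkh-2 (0.28 to 0.76) kept direction and call, except that none passes a log2 difference of 1.5, which leaves 0 members higher and 0 lower in both comparisons, and 0, 0 and 1 member probe sets (against Hke3, against Hkh-2 and Hke3 minus Hkh-2) in place of 7, 5 and 5. The count of members higher in Hke3 than in Hkh-2 was least stable, at 1 as reported. It was 2 with the compared groups only, with cyclic loess, with a trended robust prior, with a floor of 7 (where 3 probe sets were called) and with vehicle and doxycycline pooled, and 3 with the mean of probe sets and without both arrays that stood apart. Leaving out 1 array gave 1 to 3. With the replicate block it was 2, although the numbers do not pair these groups (6 of 12 arrays correlate best with their own number), and the block otherwise changed only the probe sets called against Hkh-2, to 4. That count, 5 as reported, was also 4 with cyclic loess, with no filter and in 8 of the 12 fits that left out an array. SERPINB5 entered in 13 settings and SERPINB1 in 3, among them without Hke3 replicate 3. SERPINB8 against Hke3 turned to -0.18 with the mean of its probe sets, which differ in course. The number of arrays and signals near the floor limit SERPINB7, SERPINB8 and 209722_s_at of SERPINB9.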

Other observations

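Serpins of other clades are mostly secreted. Of 18 with a probe set, 8 passed the floor. In HCT116 vehicle, 1 was higher and 4 were lower than in Hke3. None was higher there and 2 were lower than in Hkh-2. Between the clones, 2 were higher and 2 lower in Hke3. Calls over all genes were 24.6% up with 23.2% down for the first of these comparisons. They were 14.3% with 21.7% for the next and 16.3% with 23.5% between the clones. With 8 genes tested, the counts are not far from these shares and are no result about serpins of other clades. SERPINA1, the plasma inhibitor of neutrophil elastase, was high in Hke3 alone, at 6.33 in doxycycline arrays, 6.37 in vehicle arrays, 7.45 in Hke3 and 6.30 in Hkh-2. HCT116 vehicle differed from Hke3 by -1.08 (limma adjusted p = 3.09e-06) and from Hkh-2 by 0.07 (adjusted p = 0.644). SERPINE2, an inhibitor of thrombin and urokinase, had the reverse order of the lines to SERPINB9, at 11.34 in doxycycline arrays, 11.37 in vehicle arrays, 11.12 in Hke3 and 11.74 in Hkh-2, with differences of 0.25 from Hke3 (adjusted p = 0.0126) and -0.36 from Hkh-2 (adjusted p = 0.00167). SERPINI1, neuroserpin, was lower in HCT116 than in Hke3, with a difference of -0.78 (adjusted p = 0.000803) and differed from Hkh-2 by -0.29 (adjusted p = 0.138).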
